A study of Mus musculus with 28 samples.

Results

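The genes described here are 9 members of the bone morphogenetic protein (BMP) pathway in mouse cells: the ligands Bmp2, Bmp4 and Bmp7, the secreted antagonist Grem1 (gremlin 1), the inhibitory Smads Smad6 and Smad7, and the target genes Id1, Id2 and Id3. They were picked by name out of 50600 genes in the expression table, in which each matched 1 row. RNA-seq had been performed on 28 libraries, 2 for each of 14 groups. The starting cells were mouse embryonic fibroblasts (MEFs) labelled wild type, which per the study carry an Oct4-GFP reporter, were prepared from embryos of either sex, and can hold other cell types of the embryo. They were left without treatment or given the p38 inhibitor SB203580 (p38i). For induction of pluripotency, Sox2, Klf4 and Oct4 were delivered by retroviral vectors and the cells were kept in the defined medium iCD1, so cells that took up no virus could remain in every induced culture. Induced cells received DMSO (control), p38i during induction (p38i), or p38i before induction only (pre-p38i), and each of these arms was collected on days 1, 3, 5 and 7. The labels do not say whether the 2 libraries of a group came from separate cultures, so errors below measure the spread between these libraries, which may be technical.

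BMP ligands bind pairs of type I and type II receptors on the cell surface, which phosphorylate Smad1, Smad5 and Smad9. These Smads enter the nucleus with Smad4 and switch on the Id genes, whose proteins lack a DNA-binding region and sequester the E proteins Tcf3, Tcf4 and Tcf12, and also Smad6 and Smad7, which feed back on the receptors. Grem1 is released by fibroblasts and binds BMP2 and BMP4 before they reach the receptor. In reprogramming, BMP signalling is known to favour the shift of fibroblasts towards an epithelial state, and in mouse embryonic stem cells it keeps the Id genes on.

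Of the members, 5 had a promoter entry in RefSeq (build GRCm38.p6). The 250 bases before the start of Grem1 and of Bmp4 are shown because, of the 9 genes, these 2 differed most, and in opposite directions, between MEFs with and without p38i. Both lie on the minus strand and are written 5′ to 3′ along the gene, Grem1 from chr2:113758649-113758898 and Bmp4 from chr14:46390670-46390919. Capitals mark CAGAC or its reverse complement GTCTG, and GGCGCC, letters bound by Smad proteins, searched on both strands.
Grem1: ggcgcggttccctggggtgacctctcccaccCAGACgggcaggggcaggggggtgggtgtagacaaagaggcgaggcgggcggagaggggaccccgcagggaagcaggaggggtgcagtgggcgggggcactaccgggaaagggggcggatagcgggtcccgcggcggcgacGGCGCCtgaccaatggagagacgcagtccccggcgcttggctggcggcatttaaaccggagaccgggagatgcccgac
Bmp4: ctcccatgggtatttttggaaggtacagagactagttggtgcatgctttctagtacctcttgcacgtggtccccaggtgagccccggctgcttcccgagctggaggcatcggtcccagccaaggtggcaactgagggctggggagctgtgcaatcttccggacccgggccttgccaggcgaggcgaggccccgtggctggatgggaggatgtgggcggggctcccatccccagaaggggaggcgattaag
The Grem1 window held GGCGCC at position -78 and CAGAC at position -219, counted back from the gene start, and the matches do not overlap. In the Bmp4 window neither was found, and the same held for Smad6. Id3 had 2 matches to CAGAC or GTCTG and Id2 had 1 match to GGCGCC, but their windows overlap annotated exons and are not printed. Of 32851 RefSeq promoter windows of this length, 9.59% held GGCGCC and 42.2% held CAGAC or GTCTG.

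The values are whole numbers whose sum is between 991287 and 992537 in every library, and were read as TPM rounded down, a transcript abundance scaled for library size and gene length. Levels can therefore be compared between genes, but the depth behind them is unknown. Levels are given in TPM. Each difference is on the log2(value + 1) scale with its standard error (SE) from limma, fitted to 13230 genes over all 28 libraries. The SE pools the spread within all 14 groups, so a gene has the same SE in every comparison, not that of the libraries compared. The log2(value + 1) scale understates the change of genes at a few TPM. The members were chosen with results of these data known, so their differences are given as a description, without a p-value. The fibroblast marker sum over 12 genes was 16032 to 16834 TPM in untreated MEFs, where Lum was listed at 0, and 8 pluripotency markers were all at 0 there. On day 7 with DMSO the fibroblast sum was 3867 to 4070 TPM and the pluripotency sum 74 to 86 TPM. In bulk RNA, fewer cells of a type and less RNA per cell cannot be told apart. The plot of levels by group shows each member in every library.

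**Figure D1:**
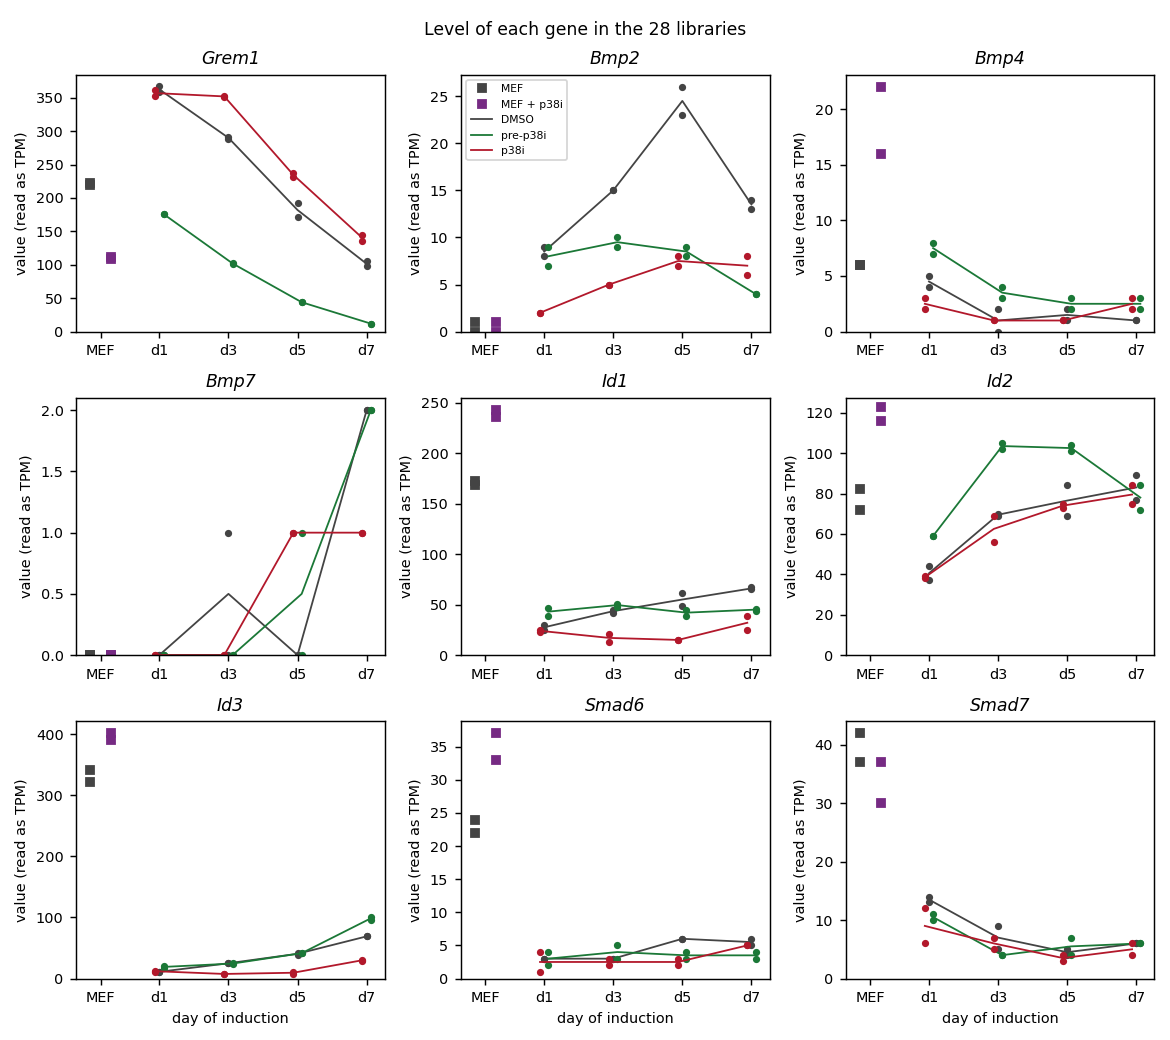
Level of each of the 9 genes (y axis, value read as TPM, linear from 0) in MEFs and by day of induction (x axis). Each point or square is 1 library, and lines join the means of 2 libraries. Grem1 is lowest in pre-p38i at each day of induction, and the 3 Id genes are highest in p38i-treated MEFs.

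Among the ligands, Bmp2 was hardly detected in MEFs and was highest in the middle of DMSO induction, Bmp4 was highest in p38i-treated MEFs, and Bmp7 never passed 2 TPM. Bmp2 (chr2:133552159-133562885, GRCm38) was at 1 and 0 TPM in untreated MEFs and 0 and 1 TPM in p38i-treated MEFs. With DMSO the libraries of days 1, 3, 5 and 7 had 9 and 8, 15 and 15, 23 and 26, and 14 and 13 TPM. With p38i during induction it was at 2 and 2, 5 and 5, 8 and 7, and 6 and 8 TPM on the same days. Every DMSO library was thus above every p38i library of its day. The difference, p38i minus DMSO, was in turn -1.66, -1.42, -1.58 and -0.87 (SE 0.27, n = 2 against 2). In pre-p38i cells Bmp2 was at 7 and 9 TPM on day 1, overlapping DMSO, then 9 and 10, 9 and 8, and 4 and 4 TPM. The difference from DMSO went from -0.08 on day 1 through -0.61 and -1.42 to -1.54 on day 7. In order of level, the 3 groups above the rest were DMSO day 5, then DMSO days 3 and 7, which did not overlap each other. The groups from pre-p38i day 3 at 9 and 10 TPM down to p38i day 7 at 6 and 8 TPM each overlapped or touched a neighbour.

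Bmp4 (chr14:46383520-46390669, minus strand) was at 6 and 6 TPM in untreated MEFs and at 22 and 16 TPM in p38i-treated MEFs, a difference of 1.5 (SE 0.35). The treated libraries were the highest of all 28, with no overlap. On day 1 Bmp4 was at 4 and 5 TPM with DMSO, 8 and 7 TPM in pre-p38i and 3 and 2 TPM with p38i, so the 3 arms did not overlap. From day 3 on it was between 0 and 4 TPM in every induced library. Pre-p38i minus DMSO was 0.63, 1.37, 0.50 and 0.79 over days 1, 3, 5 and 7, and the day 3 value was 0.58 without DMSO day 3 library 1, which was listed at 0. Bmp4 shares exon bases with Gm15217 on the other strand, and since the sources do not say whether counting used strand, reads of the pair cannot be told apart, although Gm15217 was listed at 0 throughout. Bmp7 (chr2:172868012-172940321, minus strand) had a mean under 1 TPM and was left out of the fit. It was at 0 in all 4 MEF libraries and at 2 TPM in both libraries of DMSO day 7 and of pre-p38i day 7, against 1 TPM in both of p38i day 7.

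Grem1 (chr2:113746164-113758646, minus strand) was the most abundant of the 9 genes in every day 1 group, and was lower wherever p38i had been given before induction. Untreated MEFs had 219 and 222 TPM and p38i-treated MEFs 111 and 108 TPM, a difference of -1.0 (SE 0.05, n = 2 against 2). With DMSO, Grem1 was at 367 and 358, 292 and 288, 171 and 193, and 98 and 105 TPM over days 1, 3, 5 and 7. In pre-p38i cells it was at 176 and 176 TPM, 101 and 103, 44 and 44, and 12 and 12 TPM. No pre-p38i library reached a DMSO library of the same day. Pre-p38i minus DMSO was -1.04, -1.5, -2.02 and -2.98 in day order, a ratio of value + 1 that went from 2.05 to 7.88. With p38i during induction Grem1 was at 362 and 352 TPM on day 1, which overlapped DMSO, then at 353 and 351, 232 and 237, and 135 and 145 TPM, above DMSO on each of these days. Those differences were -0.02, 0.28, 0.37 and 0.46. The 2 ways of giving the inhibitor thus differed most on day 7, where p38i minus pre-p38i was 3.44, or a 10.8-fold ratio of value + 1. All arms are set against the same DMSO libraries, so their differences are not independent of each other.

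Ordered by level, DMSO day 1, p38i day 1 and p38i day 3 stood at the top between 351 and 367 TPM, each overlapping the next. DMSO day 5 overlapped pre-p38i day 1, and pre-p38i day 3 overlapped DMSO day 7. All other neighbours in the order of the 14 groups were apart. Marker sums differed between the same groups. On day 7 the fibroblast marker sum was 2745 to 2888 TPM in pre-p38i and 5274 to 5297 TPM with p38i. Against DMSO 12 of 12 of these markers were called lower in pre-p38i and 5 of 12 higher with p38i. Of all genes, 14.5% were called lower in pre-p38i and 16.5% higher with p38i on that day. In p38i-treated MEFs the fibroblast sum was 12516 to 12700 TPM, with 6 of 12 markers lower and 1 higher, beside 8.15% and 9.73% of all genes. The sum of 12 macrophage markers on day 7 was 219 to 220 TPM with DMSO, 197 to 224 TPM with p38i and 36 to 48 TPM in pre-p38i, where Csf1r, Fcgr1 and Ptprc were at 0 and 10 of 10 tested were lower than with DMSO. In MEFs that sum was 310 to 328 TPM without and 215 to 217 TPM with p38i. The sum of 10 epithelial markers on day 7 was 512 to 545 TPM with DMSO, 999 to 1039 TPM in pre-p38i and 220 to 240 TPM with p38i, and the pluripotency sums were 132 to 136 TPM and 8 to 10 TPM in the last 2. On days 3 and 5 with p38i Grem1 was higher than with DMSO, while 9 and 6 of 12 fibroblast markers were called lower and 1 and 4 higher. Of all genes, 16.2% and 18.7% were called lower and 5.22% and 7.87% higher. The fibroblast sums on those days were 6891 to 7114 and 6081 to 6326 TPM with p38i, against 8206 to 8786 and 5489 to 6096 TPM with DMSO. The macrophage sums were at most 263 and 230 TPM, against at least 432 and 433 TPM. The part of any of these cells in the Grem1 difference was not tested.

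**Figure D2:**
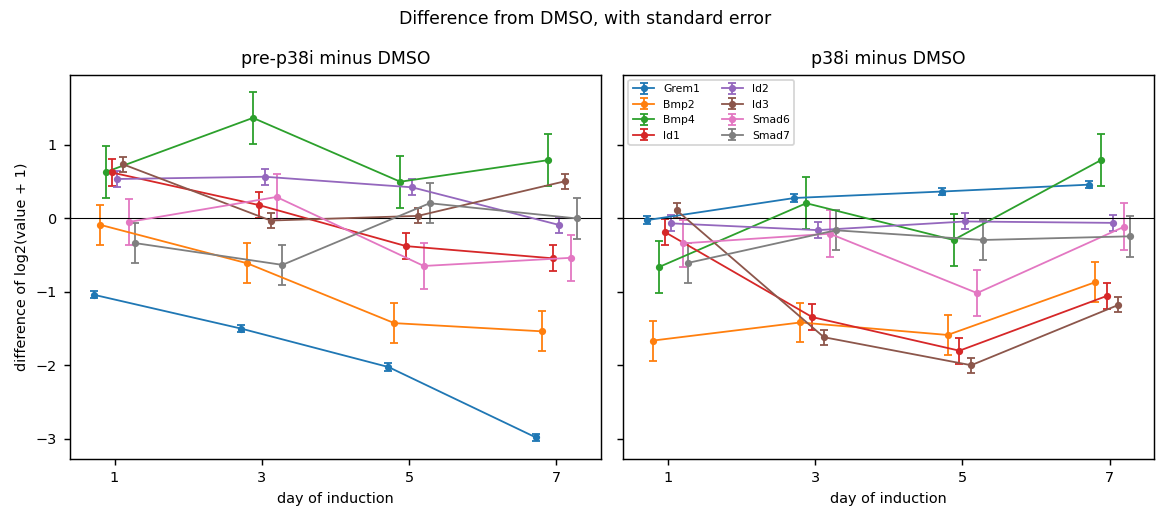
Difference from DMSO on the same day (y axis, log2(value + 1)) by day of induction (x axis) for the 8 genes in the fit, with pre-p38i on the left and p38i during induction on the right. Points are estimates from 2 libraries a group and bars are 1 SE. Grem1 runs from -1.04 to -2.98 on the left, and Id1, Id3 and Bmp2 lie below 0 on days 3, 5 and 7 on the right.

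Set against the 3 ligands together, Grem1 was in excess in every group. The ratio of Grem1 to the sum of Bmp2, Bmp4 and Bmp7, in TPM, was 34.1 ± 4.04 (SD, n = 2) in untreated MEFs and 5.70 ± 0.925 in p38i-treated MEFs. With DMSO it was 27.9 ± 0.490 on day 1 and 6.16 ± 0.564 on day 7. It was 80.2 ± 11.0 on day 1 and 13.3 ± 0.225 on day 7 with p38i, and 11.4 ± 0.519 and 1.42 ± 0.118 in pre-p38i. The ratio was therefore lowest in pre-p38i on both days and highest with p38i during induction, with no overlap of libraries. The ligand sum was small, at 5 and 4 TPM in p38i day 1 and 8 and 9 TPM in pre-p38i day 7. Values rounded down therefore make the ratio coarse. The sum also leaves out other ligands such as Bmp6, at 15 and 12 TPM in DMSO day 7 and 3 and 2 TPM in pre-p38i day 7. The ratio compares transcripts and says nothing of protein.

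The inhibitory Smads differed between MEFs and induced cells far more than between arms. Smad6 (chr9:63953076-64022059, minus strand), which blocks BMP receptors and Smads, was at 24 and 22 TPM in untreated MEFs, 37 and 33 TPM in p38i-treated MEFs, and 1 to 6 TPM in all 24 induced libraries. DMSO day 1 minus untreated MEFs was -2.58 (SE 0.32). On day 5 it was at 6 and 6 TPM with DMSO, above both other arms. Those had 2 and 3 TPM with p38i and 3 and 4 TPM in pre-p38i, which touched at 3. The day 5 difference from DMSO was -1.01 with p38i, which was called, and -0.65 in pre-p38i, which was not (SE 0.32). Smad7 (chr18:75367529-75395935), which acts on both the BMP and the TGF-beta branch, was at 42 and 37 TPM in untreated and 30 and 37 TPM in p38i-treated MEFs, which touched at 37. With DMSO it was at 14 and 13 TPM on day 1 and 6 and 6 TPM on day 7, a day 7 minus day 1 difference of -1.05 (SE 0.27). Its differences between arms and DMSO were between -0.63 and 0.21. Those of p38i on day 3 (-0.16) and of pre-p38i on day 5 (0.21) changed sign under some alternatives.

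All 3 Id genes had their highest levels in p38i-treated MEFs, where Id2 was called higher than in untreated MEFs and Id1 and Id3 were not, and all were lower on day 1 with DMSO than in untreated MEFs. In untreated MEFs Id1 and Id3 were above every induced group, and Id2 was not. Id3 (chr4:136143497-136145755) was at 321 and 341 TPM in untreated MEFs, 401 and 391 TPM in p38i-treated MEFs, and 11 and 11 TPM on day 1 with DMSO. The difference between DMSO day 1 and untreated MEFs was -4.79 (SE 0.10), against -2.59 (SE 0.18) for Id1 and -0.91 (SE 0.11) for Id2. These samples differ in transgenes, infection, time of induction, DMSO and, per the study, medium, which cannot be told apart. The same limit holds for every gene compared between DMSO day 1 and untreated MEFs. The median of all genes in that comparison was 0.14 on the same scale, and -0.07 after quantile normalization.

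Over induction with DMSO, Id3 was at 25 and 25, 39 and 42, and 69 and 69 TPM as days 3, 5 and 7 were reached. With p38i it was at 13 and 11, 7 and 8, 11 and 8, and 29 and 31 TPM on days 1, 3, 5 and 7. From day 3 on, both p38i libraries were below both DMSO libraries, by -1.62, -2.0 and -1.18 in day order. In pre-p38i cells Id3 was at 20 and 18 TPM on day 1 and at 101 and 96 TPM on day 7, above DMSO by 0.74 and 0.51, while on days 3 and 5 it was at 24 and 25 and at 42 and 41 TPM and overlapped DMSO. In order of level, MEF + p38i, MEF, pre-p38i day 7 and DMSO day 7 were all apart, and p38i days 1, 3 and 5 and DMSO day 1, at 7 to 13 TPM, were the lowest.

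Id1 (chr2:152736251-152737410) was at 172 and 168 TPM in untreated and 243 and 236 TPM in p38i-treated MEFs, a difference of 0.49 (SE 0.18). The DMSO libraries had 25 and 30, 42 and 45, 61 and 49, and 65 and 67 TPM over days 1, 3, 5 and 7. With p38i it was at 23 and 25, 21 and 13, 15 and 15, and 25 and 39 TPM, which on days 3, 5 and 7 lay below DMSO by -1.34, -1.80 and -1.05. Pre-p38i libraries were at 39 and 47 TPM on day 1, above DMSO, and at 51 and 48 TPM on day 3. They were at 39 and 45 TPM on day 5 and 46 and 44 TPM on day 7, below DMSO. The 4 differences were 0.63, 0.18, -0.38 and -0.54, so Id1 in pre-p38i lay within a range of 39 to 51 TPM while DMSO passed from below to above it. All pre-p38i days and DMSO day 3 lay between 39 and 51 TPM, and most neighbours among them overlapped.

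Id2 (chr12:25093801-25096092, minus strand, a position that differs from GENCODE M21) varied least of the 3. It was at 72 and 82 TPM in untreated and 123 and 116 TPM in p38i-treated MEFs, a difference of 0.63 (SE 0.11). With DMSO it was at 44 and 37, 69 and 70, 84 and 69, and 77 and 89 TPM over days 1, 3, 5 and 7. With p38i it was at 38 and 39, 56 and 69, 73 and 75, and 84 and 75 TPM, which overlapped DMSO on every day. Pre-p38i cells had 59 and 59, 102 and 105, 101 and 104, and 84 and 72 TPM, which was above DMSO on days 1, 3 and 5 by 0.54, 0.57 and 0.42 and overlapped it on day 7. In the order of means, the groups from DMSO day 7 through p38i day 7, pre-p38i day 7, MEF and DMSO day 5 to p38i day 5 overlapped their neighbours, between 69 and 89 TPM.

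**Figure D3:**
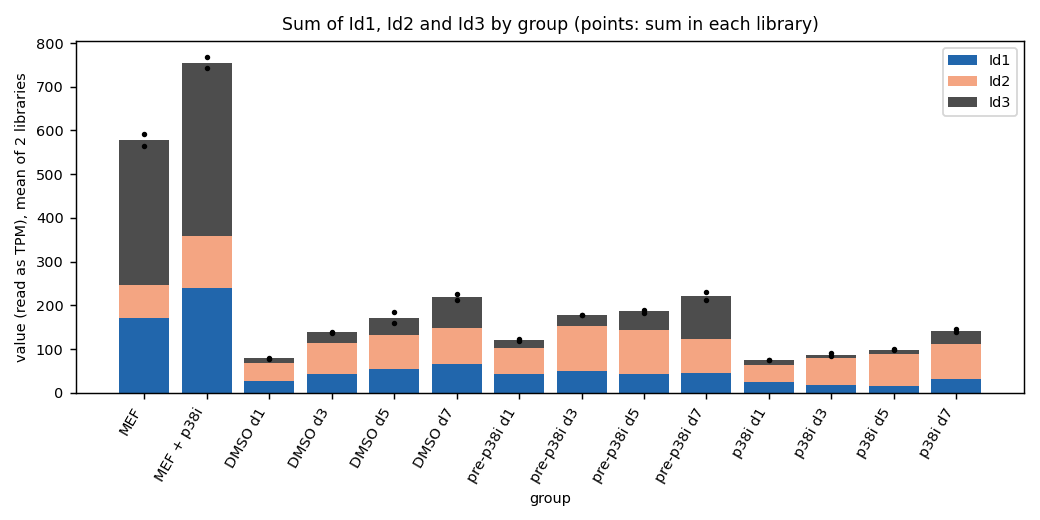
Sum of Id1, Id2 and Id3 (y axis, value read as TPM, bars are means of 2 libraries stacked by gene and start at 0, points are the sum in each library) for the 14 groups (x axis). The sum is 578 in MEF and 79.0 in DMSO day 1, and Id3 makes up most of it in MEFs but little of it in p38i on days 3 and 5.

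The makeup of the Id pool differed between groups as well as its size, as the plot of the Id sum shows. The sum of the 3 genes was 578 ± 18.4 TPM (SD, n = 2) in untreated MEFs and 755 ± 17.0 TPM in p38i-treated MEFs. It was 79.0 ± 1.41 TPM on day 1 and 218 ± 9.90 TPM on day 7 with DMSO. On day 7 the sum was 141.5 ± 4.95 TPM with p38i and 221.5 ± 13.4 TPM in pre-p38i, the latter overlapping DMSO. Id3 was 57.3% ± 0.626 of the sum in untreated MEFs, 31.7% ± 1.44 on day 7 with DMSO, 21.2% ± 0.258 with p38i and 44.5% ± 1.10 in pre-p38i. On day 5 with p38i, Id2 made up 75.1% ± 1.98 and Id3 9.64% ± 2.08. Pre-p38i and DMSO on day 7 therefore had sums that overlapped but Id3 shares that did not.

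By the limma call used for all genes (Benjamini-Hochberg adjusted p under 0.05), which for genes chosen with these results known is only a description, members were called as follows. In p38i-treated against untreated MEFs, 3 of 8 in the fit were called (Bmp4 and Id2 higher, Grem1 lower), where 17.9% of all genes were called. Pre-p38i against DMSO gave 4, 3, 3 and 4 over days 1, 3, 5 and 7, where 11.6%, 20.6%, 25.6% and 29.9% of all genes were called, with Grem1 lower each time. For p38i against DMSO the counts were 1, 4, 5 and 4, beside 16.1%, 21.4%, 26.6% and 34.1% of all genes, with Bmp2 lower each time. On day 7, p38i against pre-p38i gave 4 (54.3%), DMSO day 1 against untreated MEFs 7 (55.5%) and DMSO day 7 against day 1 gave 6 (54.6%). Without pre-p38i day 7 library 1 the count for p38i against pre-p38i was 2, and it was 2 without MEF + p38i library 1 in the MEF comparison. When only the 2 groups compared were fitted, the counts were 1, 2, 2 and 4 for pre-p38i, 1, 3, 3 and 2 for p38i, and 2 for p38i against pre-p38i. With a pseudocount of 0.1 the call of Bmp2 with p38i on day 1, the only one there, was lost.

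Over the 14 group means of log2(value + 1), the members did not follow each other as a block. As a description across groups that share cells and days, Id1 and Id3 had a Pearson r of 0.94 (n = 14 groups), Id1 and Smad6 0.92 and Id3 and Smad6 0.89, all of which are high in MEFs. Grem1 had an r of -0.46 with Id3, -0.56 with Id2 and 0.02 with Bmp2. Among 10661 other genes with a mean of at least 5 TPM, the patterns most like Grem1 were those of Blcap (r = 0.97) and Rhod (r = 0.97). For Bmp2 they were Plxnb2 (0.96) and Srgap2 (0.96), and for Bmp4 they were Mid1 (0.96) and Gpc3 (0.94). Smad6 was most like S1pr3 (0.97) and Trib1 (0.96), and Smad7 most like Oat (0.97) and AI506816 (0.97). Id1 was nearest to Sdc4 (0.94) and Col2a1 (0.93), Id2 to Spry2 (0.94) and Tmem88 (0.91), and Id3 to Alg8 (0.96) and Col2a1 (0.96).

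The rest of the pathway was read from a list of 57 other genes, of which 39 were in the fit. This list too was chosen with earlier results of these data known, and genes are named for their large differences. The calls and adjusted p-values of these genes are therefore also a description. In p38i-treated MEFs 14 of the 39 were called, 6 higher and 8 lower, where 9.73% of all genes were called higher and 8.15% lower. Here 5 of 11 receptors and co-receptors were lower, and none was higher. Eng (endoglin, a co-receptor) was at 10 and 10 TPM against 16 and 16 TPM, a fall of 0.63 (SE 0.10, limma adjusted p = 0.000126). Id4, another Id gene, was at 14 and 14 TPM against 8 and 8 TPM, a rise of 0.74 (SE 0.16, limma adjusted p = 0.00288). The ligand traps Fst (follistatin), at 90 and 87 TPM against 128 and 126 TPM, and Fstl3 fell by 0.52 and 0.55, while Fstl1 rose by 0.38 and Twsg1, which binds BMPs with chordin, by 0.34. Calls of Fstl3 and Twsg1 were lost under 8 and 3 of 10 alternatives. Without MEF library 2, 7 of the 39 were called.

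In pre-p38i against DMSO, 12 other antagonists or modulators of BMPs were in the fit, among them Twsg1, Bmper, Crim1 and Fstl1. Of these, 4, 3, 4 and 6 were lower over days 1, 3, 5 and 7, and 2, 1, 0 and 0 were higher. Of all 39 genes, 9, 11, 11 and 16 were called over these days, with 5, 7, 8 and 12 of them lower and 4, 4, 3 and 4 higher. Of all genes, 6.24%, 6.87%, 11.3% and 14.5% were called lower and 5.4%, 13.8%, 14.3% and 15.4% higher. On day 7 Nbl1, a DAN family relative of Grem1, was at 37 and 38 TPM against 70 and 67 TPM, a fall of 0.85 (SE 0.08, limma adjusted p = 5.91e-08). Crim1, a membrane protein that binds BMPs, was at 13 and 11 TPM against 24 and 23 TPM, a fall of 0.92 (SE 0.09, limma adjusted p = 1.22e-07). On day 1 Fstl3 fell by 1.45, Bmper by 0.86 and Nbl1 by 0.57, with the Bmper call lost without pre-p38i day 1 library 2, while Fstl1 rose by 0.46. On day 3 Fstl3 fell by 0.74 and Nbl1 by 0.30, and both calls were lost without DMSO day 3 library 1 (Nbl1 also without pre-p38i day 3 library 2). When only the 2 groups compared were fitted, the day 1 calls of Fstl3, Bmper and Fstl1 and the day 3 calls of Fstl3 and Nbl1 were lost. On day 5 Bmper fell by 1.00 and Fst by 0.50. Of the co-receptors, Rgmb fell by 0.31 on day 3 and Rgma rose by 0.51 on day 7, and the Rgma call was lost without any 1 of the 4 libraries compared. Among ligands Bmp6 was at 3 and 2 TPM against 15 and 12 TPM on day 7, a fall of 2.06 (SE 0.31, limma adjusted p = 4.35e-05). Its day 5 fall of 1.05 lost the call without any 1 of the 4 libraries compared. On day 3, 5 of the 39 were called without DMSO day 3 library 1.

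Of the 3 E protein genes, whose products pair with the Id proteins, 2 were called higher in p38i-treated MEFs, beside 9.73% of all genes. With p38i during induction 2, 2, 0 and 1 were called lower over the 4 days, beside 12.6%, 16.2%, 18.7% and 17.6% of all genes. In pre-p38i 2 were called higher than with DMSO on each day, and none lower. Of all genes, 5.4%, 13.8%, 14.3% and 15.4% were called higher there. These were Tcf3 and Tcf4 on days 1, 3 and 5, and Tcf3 and Tcf12 on day 7. Tcf12 was at 106 and 110, 97 and 97, and 97 and 105 TPM on days 1, 3 and 5, against 104 and 104, 101 and 99, and 94 and 112 TPM with DMSO, and was not called on those days. Tcf3, the gene of the E proteins E12 and E47, was at 70 and 75, 110 and 115, 135 and 140, and 175 and 196 TPM over the 4 days, against 60 and 56, 86 and 81, 95 and 99, and 122 and 108 TPM with DMSO. It rose by 0.32, 0.43, 0.50 and 0.69 (day 7: SE 0.07, limma adjusted p = 4.94e-07), and the day 1 call was lost without DMSO day 1 library 2 or pre-p38i day 1 library 2. Tcf4 rose by 0.58 on day 1 and by 0.36 and 0.30 on days 3 and 5, where leaving out DMSO library 2 or pre-p38i library 2 of that day, and on day 5 also DMSO library 1, lost the call. Smad4, the common Smad, rose by 0.31, 0.33 and 0.46 on days 3, 5 and 7, and the calls of days 3 and 5 were lost without DMSO library 1 of that day, and that of day 3 also without DMSO library 2 or pre-p38i library 1. When only the 2 groups compared were fitted, Tcf3 kept its call on day 5 alone, and every call of Tcf4 and Smad4 given here was lost. None of the 4 other target genes in the fit was called by limma against DMSO in either arm on any day. Of the 32 tests of these, 4 had an unadjusted limma p under 0.05 (in Id4, Msx2 and Runx2).

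With p38i during induction the calls among the 39 genes went from lower to higher. At days 1 and 3, 12 and 13 were called, all lower. Day 5 had 1 higher and 4 lower, and day 7 had 10 higher and 3 lower. Over all genes, 12.6%, 16.2%, 18.7% and 17.6% were called lower in day order, and 3.47%, 5.22%, 7.87% and 16.5% higher. The median difference of all genes was -0.085, -0.076, -0.076 and 0 in day order, so the first 3 days were shifted down as a whole. After quantile normalization fewer of the 39 were called on day 1. Fst was at 151 and 155 TPM against 375 and 361 TPM on day 1, a fall of 1.26 (SE 0.09, limma adjusted p = 4.88e-09). It fell by 0.99 on day 3 and 0.97 on day 5. Bmp6 was at 2 and 1 TPM against 9 and 9 TPM on day 3, a fall of 2.03 (SE 0.31, limma adjusted p = 7.73e-05), and fell by 1.40 on day 5. Bmper fell by 1.08, 0.74 and 0.79 on days 3, 5 and 7, the last call lost without p38i day 7 library 1. The day 3 calls of Fst, Bmp6 and Bmper were lost when only the 2 groups compared were fitted. The day 5 call of Bmp6 was lost with a pseudocount of 0.1. Rgma and Tcf4 fell by 0.62 and 0.44 on day 1, and both calls were lost without DMSO day 1 library 1 (Rgma also without p38i day 1 library 2). Rgmb rose by 0.24 on day 5, a call lost without p38i day 5 library 1 or either DMSO library. On day 7 Nbl1 was at 109 and 105 TPM against 70 and 67 TPM, a rise of 0.64 (SE 0.08, limma adjusted p = 2.57e-06). Crim1 rose by 0.57, a call lost when only the 2 groups compared were fitted. Tcf3 and Fst fell by 0.31 and 0.29 on day 7, and the calls were lost without DMSO day 7 library 1 for Tcf3 and without DMSO day 7 library 2 or p38i day 7 library 1 for Fst. Sostdc1 rose by 1.08 on day 7, a call lost without DMSO day 7 library 1 or either p38i library. Without DMSO day 1 library 1, 4 of the 39 were called on day 1, and without p38i day 7 library 1, 7 were called on day 7.

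**Figure D4:**
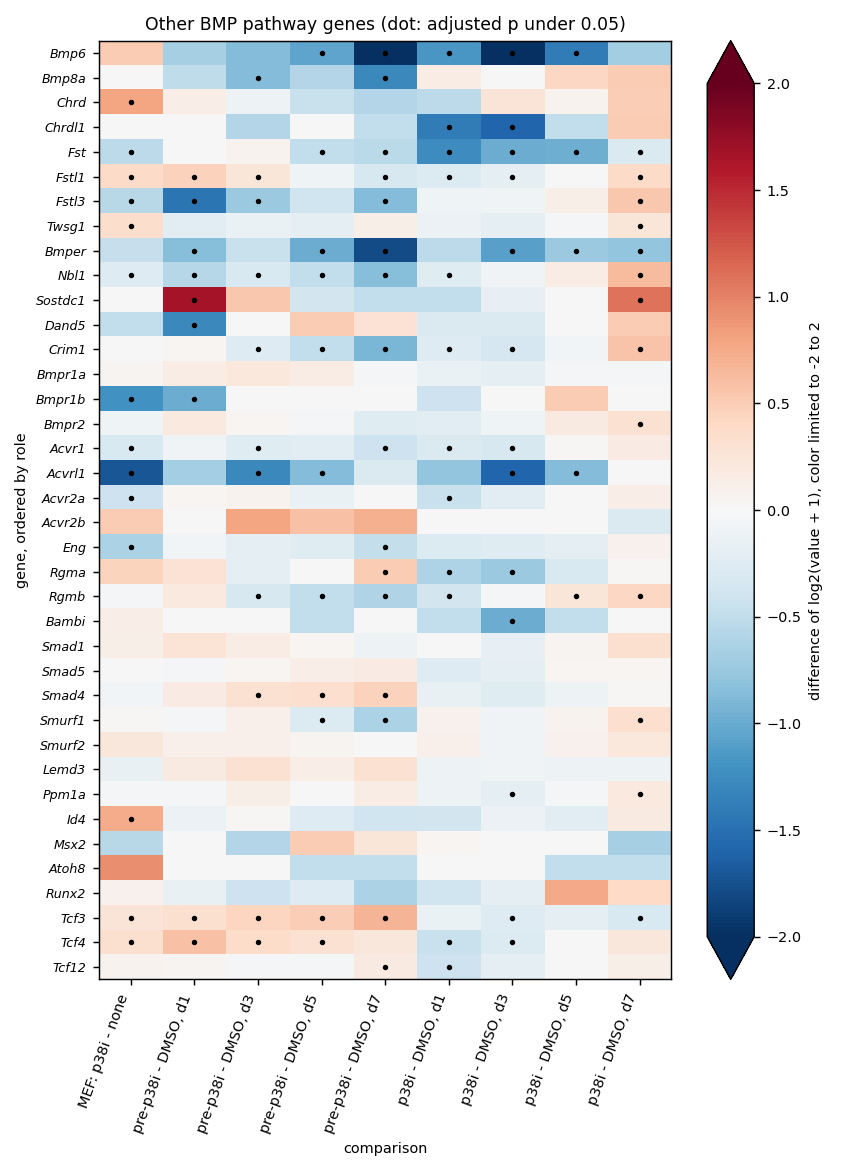
Differences of 38 of the 39 other BMP pathway genes in the fit (rows, ordered by role from ligands to Id partners) in 9 treatment comparisons (columns). Color is the difference of log2(value + 1), limited to -2 to 2, and a dot marks an adjusted p under 0.05. The p38i columns hold lower calls on days 1 and 3 and 10 higher calls on day 7, and Tcf3 is higher in all 4 pre-p38i columns.

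Between the arms on day 7, 26 of the 39 genes were called in p38i against pre-p38i, 20 higher and 6 lower, where 24.8% of all genes were called higher and 29.5% lower. Of the 12 other antagonists or modulators in the fit, 10 were higher and none was lower. Nbl1 was at 109 and 105 TPM against 37 and 38 TPM, a rise of 1.49 (SE 0.08, limma adjusted p = 4.43e-12), and Crim1 and Sostdc1 rose by 1.49 and 1.58. Tcf3 was at 93 and 92 TPM against 175 and 196 TPM, a fall of 0.99 (SE 0.07, limma adjusted p = 6.92e-10). Smad4 fell by 0.43 and Rgma by 0.48, the latter call lost without p38i library 2 or either pre-p38i library. The Smad4 call was lost when only the 2 groups compared were fitted. The fibroblast marker sums given beside Grem1 differ between these groups in the same direction as the called antagonists or modulators, and the part of fibroblasts was not tested.

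From untreated MEFs to day 1 with DMSO, 25 of the 39 were called, 11 higher and 14 lower, beside 36.6% and 18.9% of all genes. Grem1 was higher on day 1 than in untreated MEFs by 0.71 (SE 0.05). Atoh8, a BMP target, was at 20 and 14 TPM in MEFs and was listed at 0 on day 1. Fst rose by 1.53, Rgmb, a BMP co-receptor, by 1.45 and Eng by 1.14, and Crim1 fell by 1.58. From day 1 to day 7 with DMSO, 27 of the 39 were called, 7 higher and 20 lower, beside 28.4% and 26.1% of all genes. Fst fell by 3.51, Fstl3 by 2.16 and Runx2, a BMP target of bone, by 2.23. Id4 was at 25 and 27 TPM against 6 and 5 TPM, a rise of 2.06 (SE 0.16, limma adjusted p = 1.5e-09), Bmp6 rose by 1.69 and Rgma by 1.18. Id4 and Id3 were thus both higher on day 7 than on day 1, and Grem1 and most other antagonists or modulators in the fit were lower.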

How the data were processed

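RNA-seq was analysed in 28 libraries of 14 groups, which were taken from the sample labels. The score that the authors deposited per gene and library is a whole number with a library sum of 991287 to 992537, which is what TPM give when rounded down. The submitters' processing notes name bcl2fastq, Bowtie2 2.2.5 and RSEM 1.3.0, and coordinates are those of GRCm38. Labels and paper differ on library kit, extraction and MEF medium.

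Values were tested as log2(value + 1) by limma (version 3.58.1, R version 4.3.3, lmFit and trended eBayes) for 13230 genes averaging 1 or more, all groups in 1 model without a replicate block, with Benjamini-Hochberg adjustment over all genes. The script was tested on simulated data. An exact permutation of 2 against 2 libraries cannot go below p = 0.333. The deviations of same-numbered libraries had a median correlation of 0.000815 over 91 pairs of groups (-0.182 to 0.170). No pairing by number common to all groups was thus seen. Most of these pairs join different days, so pairing within a day cannot be decided from them.

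The members and lists were chosen with earlier results of these data known. Other pathway genes are named where called, not overlapping between the groups and averaging 5 or more, up to 3 with the largest rise and 3 with the largest fall. Genes outside this rule are given by counts. A gene that meets the rule is not reported here. The 2 genes most like each member were taken by Pearson r over group means. Near-identical copies (at least 95% identity over 200 nt, BLAST 2.17.0+) were found for none of the 9 genes. Promoter windows came from RefSeq. Alternatives were to fit the compared groups alone, to use 0.1 as pseudocount, to drop the filter or raise it to 5, to normalize by quantiles, to add a replicate block and to leave out each library. Plots were drawn with matplotlib 3.10.9.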

Additional observations from a re-analysis of the deposited data

Results flagged for a closer look

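Id1 and Bmp4 had every library on opposite sides of DMSO at different days under the same treatment, and the difference between the days was not tested. In pre-p38i, both Id1 libraries were above both DMSO libraries on day 1 (0.63) and day 3 (0.18), and below them on day 5 (-0.38) and day 7 (-0.54). The SE was 0.18, and the differences of days 3 and 5 were not called. With p38i during induction, both Bmp4 libraries were below DMSO on day 1 (-0.66) and above it on day 7 (0.79), at levels of at most 5 TPM. The SE was 0.35, and neither Bmp4 difference was called. An exact permutation gives full separation of 2 against 2 libraries a p of 0.333. Groups of 2 libraries are too small for a test of single outlying libraries.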

How the results depend on the processing

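No called difference of the 9 genes changed sign, and of their 948 values under alternatives 864 moved by less than 1 SE. The other sign was seen for 22 values of 14 differences, none of them called, with main values between -0.34 and 0.21. When only the 2 groups compared were fitted, which leaves few libraries to estimate the spread, the counts of other pathway genes called were 6 in place of 14 for p38i-treated MEFs, 2, 4, 7 and 9 in place of 9, 11, 11 and 16 for pre-p38i against DMSO on days 1, 3, 5 and 7, 6 and 4 in place of 12 and 13 for p38i against DMSO on days 1 and 3, and 16 in place of 26 for p38i against pre-p38i. Quantile normalization gave 7 for p38i on day 1, and a pseudocount of 0.1 gave 3 in place of 5 for p38i on day 5. With 1 library left out, whose group is then a lone library assumed to vary like the others, counts were 7 to 10 for p38i-treated MEFs, 6 to 8, 5 to 8, 8 to 10 and 14 to 18 for pre-p38i over the 4 days, 4 to 10, 7 to 11, 4 to 7 and 7 to 9 for p38i over the 4 days, and 19 to 20 for p38i against pre-p38i. They were 21 to 23 for DMSO day 1 against MEFs and 26 to 28 for DMSO day 7 against day 1. The libraries behind moves of over 1.5 times were both MEF libraries and MEF + p38i library 2, both DMSO day 3 libraries and pre-p38i day 3 library 2, DMSO day 1 library 1 and both p38i day 1 libraries, and both p38i day 7 libraries. The replicate block moved no count by over 1.5 times (12 for p38i-treated MEFs and 17 for pre-p38i on day 7, for example), and lost the calls of Fstl3 in MEFs, Tcf4 in pre-p38i on day 5 and Rgmb with p38i on day 5. These 3 calls were also lost under other alternatives, 8 of 10 in all for Fstl3 and 5 of 10 each for Tcf4 and Rgmb. Whether the replicate numbers pair libraries within a day is not known. Of the values of named pathway genes under alternatives, 555 kept the call, 82 lost it and none changed sign. The depth of the libraries is unknown, so the counting error, which weighs most on levels of a few TPM, cannot be given.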
